A study of Mus musculus with 2 samples.

Results

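Kinesin motor genes were compared between the inner cell mass (ICM) and the whole blastocyst of the mouse embryo at E3.75. A gene was taken as a member when its symbol in the deposited table begins with Kif followed by a digit or by the letter c, which gave 39 of the 19559 listed genes. By their known roles 13 of them were placed as mitotic kinesins, 15 as transport kinesins and 11 as other kinesins (cilium, signalling, microtubule growth or little studied). The study has 1 library of ICMs, freed of their outer cells by immunosurgery (lysis with antibody and complement), and 1 library of intact blastocysts. Embryos of both groups were at E3.75 and came from matings of B6CBAF1 females with CD-1 males, and no treatment or mutation is labelled. The whole blastocyst contains its own ICM beside the trophectoderm, the outer epithelium. How many embryos were pooled was not given in the sources used here.

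Kinesins are ATP-driven motors that walk along or remodel microtubules. In dividing cells, mitotic kinesins push spindle poles apart, align chromosomes, shorten microtubule ends and build the central spindle on which the cell divides. Transport kinesins carry vesicles, mitochondria, mRNA and ciliary cargo through light chains and adaptors. In the preimplantation embryo cells divide in both lineages, while the trophectoderm is also a polarized epithelium with directed vesicle traffic.

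Mitotic kinesin genes are known to be transcribed late in the cell cycle, in part through a promoter element called the cell cycle genes homology region (CHR), often accompanied by CCAAT boxes. Promoter windows of 300 bases (250 before to 50 after the RefSeq start, build GRCm38.p6, the first window listed per gene) were found for 31 of the 39 members. None was found for Kif20a, while the 12 mitotic windows include that of Kif2b, which had no read in either library. They were searched on both strands for TTTGAA, the CHR, and for CCAAT, and in no member did matches of the 2 motifs share a base. A CHR match was present in 9 of 12 mitotic windows (75%), in 0 of 10 transport windows and in 2 of 9 windows of the other kinesins (22.2%), against 18.1% of 27025 gene promoters. A CCAAT match was present in 7 of 12 mitotic windows (58.3%), in 3 of 10 transport windows (30.0%) and in 4 of 9 other windows (44.4%), against 37.9% of all. Both motifs stood in 6 of 12 mitotic windows, in 0 of 10 transport windows and in 7.12% of all. The matches are letters in a window and were not tested as binding sites. The first 3 windows below are those of mitotic kinesins that hold both motifs and that differ in their values (Kif11, Kif22, Kif23). The last 3 are those of transport kinesins whose level was higher in the ICM (Kif16b), far lower there (Kif13a) or nearly equal (Kif1b). Capitals mark the matches.
Kif11: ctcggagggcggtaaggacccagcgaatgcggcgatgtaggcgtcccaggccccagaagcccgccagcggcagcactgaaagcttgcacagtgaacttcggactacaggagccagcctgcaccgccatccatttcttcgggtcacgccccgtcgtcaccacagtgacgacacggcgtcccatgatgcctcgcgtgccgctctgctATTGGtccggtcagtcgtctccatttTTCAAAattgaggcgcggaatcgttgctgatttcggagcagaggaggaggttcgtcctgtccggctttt
Kif22: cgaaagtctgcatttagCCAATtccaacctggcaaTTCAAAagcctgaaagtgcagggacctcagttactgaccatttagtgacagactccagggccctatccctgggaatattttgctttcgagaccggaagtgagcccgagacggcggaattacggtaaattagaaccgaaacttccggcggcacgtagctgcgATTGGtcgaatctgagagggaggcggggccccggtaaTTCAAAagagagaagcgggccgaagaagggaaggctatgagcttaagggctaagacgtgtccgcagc
Kif23: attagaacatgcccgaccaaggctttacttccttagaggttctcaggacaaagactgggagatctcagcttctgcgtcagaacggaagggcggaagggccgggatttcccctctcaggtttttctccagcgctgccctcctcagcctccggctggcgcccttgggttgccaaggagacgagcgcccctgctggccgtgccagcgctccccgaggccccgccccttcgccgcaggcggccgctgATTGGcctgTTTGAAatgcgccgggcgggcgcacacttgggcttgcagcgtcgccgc
Kif16b: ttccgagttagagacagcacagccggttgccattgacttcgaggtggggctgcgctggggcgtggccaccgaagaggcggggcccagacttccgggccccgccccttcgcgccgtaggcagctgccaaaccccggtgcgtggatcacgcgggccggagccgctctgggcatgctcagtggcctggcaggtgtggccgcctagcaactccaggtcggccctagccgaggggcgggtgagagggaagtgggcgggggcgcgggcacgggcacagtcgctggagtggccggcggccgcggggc
Kif13a: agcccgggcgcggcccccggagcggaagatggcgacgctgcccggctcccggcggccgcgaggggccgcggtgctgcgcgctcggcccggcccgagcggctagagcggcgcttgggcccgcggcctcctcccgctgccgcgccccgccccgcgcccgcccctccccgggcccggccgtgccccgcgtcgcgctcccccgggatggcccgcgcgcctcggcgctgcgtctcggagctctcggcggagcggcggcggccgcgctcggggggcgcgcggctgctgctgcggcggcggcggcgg
Kif1b: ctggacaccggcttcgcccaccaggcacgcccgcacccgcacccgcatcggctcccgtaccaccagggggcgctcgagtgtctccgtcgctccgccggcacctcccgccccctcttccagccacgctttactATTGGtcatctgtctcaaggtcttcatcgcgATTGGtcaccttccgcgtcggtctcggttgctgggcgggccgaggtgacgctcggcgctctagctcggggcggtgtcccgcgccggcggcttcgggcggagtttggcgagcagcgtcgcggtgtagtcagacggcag
The windows lie at chr19:37376132-37376431 (+ strand), chr7:127042371-127042670 (- strand), chr9:61946750-61947049 (- strand), chr2:142901415-142901714 (- strand), chr13:46929669-46929968 (- strand) and chr4:149307684-149307983 (- strand) of GRCm38.p6. In Kif11 the CHR match began 19 bases and the CCAAT match 45 bases before the start. In Kif22 the nearer pair began 17 and 54 bases before it. The Kif1b window held 2 CCAAT matches and no CHR match, and those of Kif16b and Kif13a held neither.

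**Figure D1:**
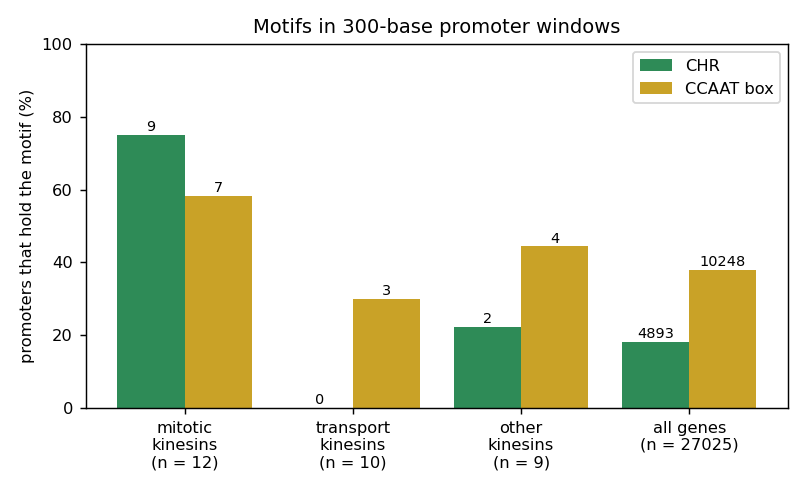
Share of 300-base promoter windows (%) that hold a CHR match (TTTGAA) or a CCAAT match on either strand, for the kinesin classes and for all genes. Numbers over the bars are windows with a match. The CHR share was 75% in mitotic kinesins, 0 of 10 windows in transport kinesins and 18.1% in all genes.

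Reads on listed genes numbered 4125479 in the ICM and 9271198 in the whole blastocyst. Expression is given as RPKM as deposited, that is, reads divided by gene length in kilobases and by the authors' total for the library. Differences are log2 ratios of ICM over whole-blastocyst RPKM after adding a pseudocount of 1 to each. They were taken for the 8981 genes that reached an RPKM of 1 in either library. A gene is called at least 2-fold lower or higher at -1 or 1 on this scale, which understates the change of low genes. Ratios of RPKM carry a 95% exact counting interval. With 1 library per group there is no spread between samples and no test of the conditions, and the intervals cover counting error only. As deposited, 6876 of these 8981 genes had a lower RPKM in the ICM, with a median difference of -0.84. Over the 3013 genes that reached an RPKM of 5 in each library the median was -0.66, and values relative to that shift are called centred. Little of the lower median was left when the RPKM were rescaled. It was -0.11 over 11602 genes with RPKM brought to a common sum (TPM). With scaling to listed gene reads it was -0.05 over 9402 genes. The libraries are thus not shown to differ over most genes. Of 8 ICM lineage markers 7 passed 2-fold on the higher side in the ICM (summed RPKM 300.9 in the ICM, against 40.7 in the whole blastocyst), and all 8 trophectoderm markers were at least 2-fold lower (52.4 in the ICM, against 1659), with Elf5 at 0 reads in the ICM. Of 5 cumulus or other maternal markers 2 reached an RPKM of 1 (summed RPKM 2.77 in the ICM, against 1.66), with members on opposite sides. Cyp19a1 had 91 reads in the ICM, against 0 in the whole blastocyst, Star had 61 in the ICM, against 239, and Inhba was at 0 in both libraries. Of 5 fibroblast or blood markers Thy1 alone did (351 reads in the ICM, against 6 in the whole blastocyst), with Col1a1 and Hbb-b1 at 0 in both. The part of such cells in the values below was not tested.

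Kinesins as a whole were placed much like other genes, and single members ran from far lower to higher in the ICM. Of the 39 members 24 reached an RPKM of 1 and were compared, 16 of them in both libraries, 7 only through the whole blastocyst (Kif2c, Kif18a, Kif1c, Kif13a, Kif5c, Kif3a and Kif24) and 1 only through the ICM (Kif21b). Of the 24, 11 were at least 2-fold lower in the ICM library and 0 at least 2-fold higher, which is 45.8% lower, against 44.0% lower and 8.96% higher over all genes compared. The median difference of the members was -0.94, beside -0.84 over all genes. Centred, 4 were lower and 2 higher, against 20.5% lower and 16.9% higher over all genes. In these bulk libraries fewer cells of a type and less RNA per cell cannot be told apart. Members passing through 1 library had to differ, so these counts, and the ratios of those 8 members, only describe the 2 libraries.

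**Figure D2:**
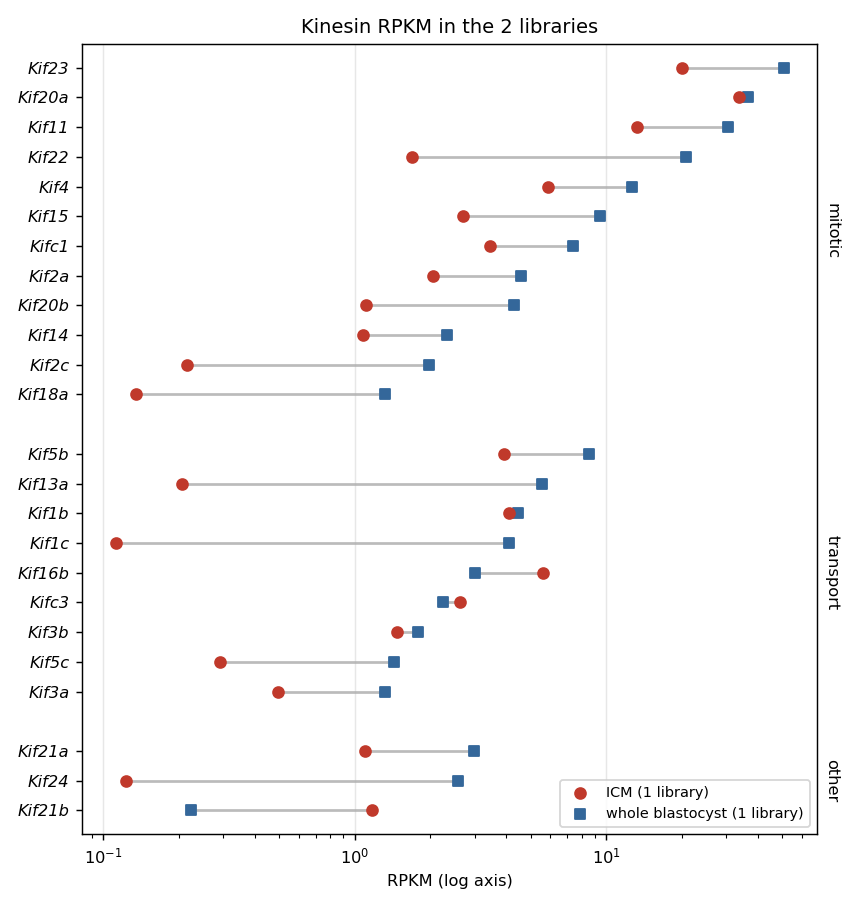
RPKM (log axis) of the 24 compared kinesins in the ICM library (circles) and in the whole-blastocyst library (squares), by class. Kif16b, Kifc3 and Kif21b are the members with the higher RPKM in the ICM, and Kif20a and Kif1b lie nearly on top of each other.

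Within the kinesins the mitotic and transport shares of reads were nearly the same in both libraries. This measure does not depend on the scaling between the libraries. Mitotic kinesins took 59.9% of 4723 kinesin reads in the ICM (95% exact interval 58.5 to 61.3) and 60.7% of 10181 in the whole blastocyst (59.7 to 61.6). Transport kinesins took 35.1% in the ICM (33.7 to 36.4) and 35.5% in the whole blastocyst (34.5 to 36.4). As shares of summed RPKM, mitotic kinesins took 79.6% in the ICM and 82.1% in the whole blastocyst. Transport kinesins took 18.1% and 15.2% in the same order. The other kinesins took 5.02% in the ICM (4.41 to 5.68) and 3.88% in the whole blastocyst (3.51 to 4.27), with intervals that did not overlap. By RPKM their order was reversed, with 2.24% in the ICM and 2.76% in the whole blastocyst. Kif21b, which was compared only through its ICM level, held 177 of their 237 reads in the ICM. In the whole blastocyst it held 40 of 395. All kinesins together took 0.114% of listed gene reads in the ICM (0.111 to 0.118) and 0.110% in the whole blastocyst (0.108 to 0.112). By RPKM this order was reversed too, with 0.117% in the ICM and 0.125% in the whole blastocyst. Without Kif20a the mitotic shares were no longer near-equal. Of the remaining kinesin reads they were 45.5% in the ICM (43.9 to 47.2) and 53.3% in the whole blastocyst (52.2 to 54.3). Other members were not left out in turn, so whether this is particular to Kif20a was not tested.

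All compared mitotic kinesins had a lower RPKM in the ICM than in the whole blastocyst, with Kif20a nearest to equality. Of the 12 compared, 8 lay at least 2-fold lower (66.7%), 0 higher and 4 within 2-fold, beside 44.0% lower over all genes. Among the lower ones, Kif2c and Kif18a were compared only through their whole-blastocyst level. The median difference was -1.09, or -0.43 centred. Against all genes the order of these shares turned with the scaling. Centred, 1 of 12, Kif22, was at least 2-fold lower, against 20.5% over all genes, and as TPM (RPKM rescaled to a common sum) 3 of 12 were, against 31.4%. Kif2b, a depolymerase of the kinesin-13 family, had no read in either library.

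Kif11, the kinesin-5 that slides antiparallel spindle microtubules apart, had 805 reads and an RPKM of 13.3 in the ICM, against 2205 reads and 30.6 in the whole blastocyst. The ratio was 0.433 (0.399 to 0.470). Kif15, a kinesin-12 that helps to keep the spindle bipolar beside Kif11, had 68 reads and an RPKM of 2.70 in the ICM, against 282 reads and 9.42 in the whole blastocyst, a ratio of 0.286 (0.216 to 0.374). The intervals of these 2 spindle-separating motors did not overlap, and both lay below the centring ratio of 0.634. Kifc1, a minus-end directed motor that focuses spindle poles, had 62 reads and 3.44 RPKM in the ICM, against 157 reads and 7.34 RPKM in the whole blastocyst. Its ratio of 0.469 (0.344 to 0.633) overlapped that of Kif11. Kifc1 has annotated near copies (Kifc5b, Kifc5c-ps), as Kif22 and Kif4 have pseudogenes (Kif22-ps, Kif4-ps), and how multi-mapping reads were counted is unknown, so these 3 are uncertain.

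The kinesin-6 motors of the central spindle and cytokinesis differed among themselves. Kif23, the MKLP1 subunit of the centralspindlin complex, had 140 reads and an RPKM of 19.96 in the ICM, against 422 reads and 50.7 in the whole blastocyst, where it had the highest RPKM of all kinesins. Its ratio was 0.394 (0.323 to 0.478). Kif20b, which acts late in cytokinesis, rested on 10 reads (1.11 RPKM) in the ICM, against 46 reads (4.29 RPKM) in the whole blastocyst, a ratio of 0.258 (0.116 to 0.518). Kif20a, the MKLP2 that moves the chromosomal passenger complex to the central spindle, had 1248 reads and 33.7 RPKM in the ICM, against 1614 reads and 36.7 RPKM in the whole blastocyst. It was the kinesin with the highest RPKM in the ICM. Its ratio of 0.918 (0.852 to 0.989) had an interval apart from those of the other 11 compared mitotic members, and its centred difference of 0.54 was the only one of the class above 0. Kif20a made up 44.1% of the mitotic kinesin reads in the ICM (42.3 to 45.95), against 26.1% in the whole blastocyst (25.04 to 27.2). In the annotation 29.3% of its exonic bases are shared with Cdc23 on the opposite strand, a subunit gene of the anaphase-promoting complex, whose ratio was 0.902 (0.847 to 0.960) on 1754 reads in the ICM and 2308 in the whole blastocyst. The use of strand in counting is not given, so reads from the shared bases cannot be told apart, and their part in the Kif20a value was not tested.

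**Figure D3:**
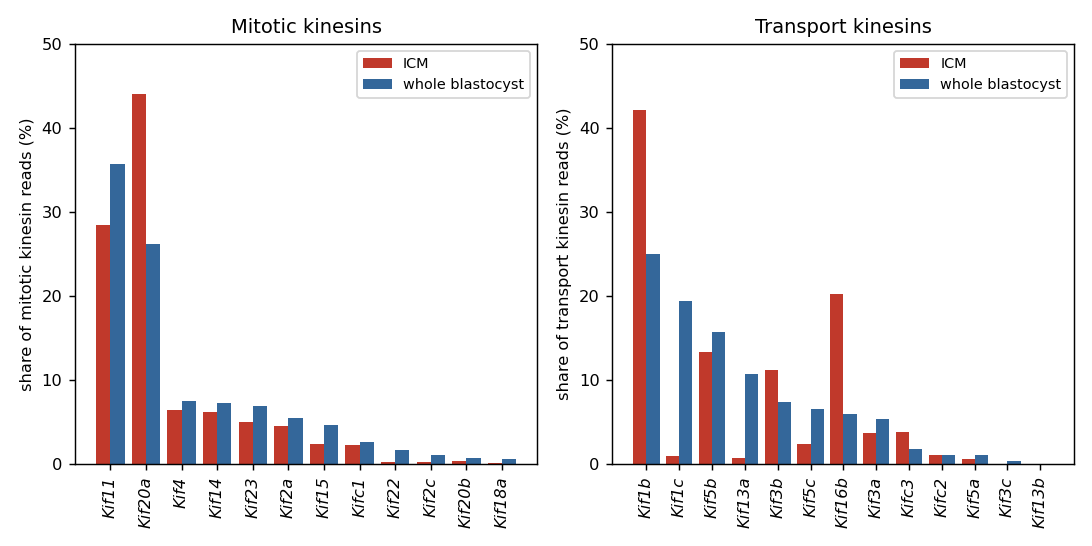
Share of mitotic and of transport kinesin reads (%) that each member took in the ICM library (left bar) and in the whole-blastocyst library (right bar). Kif20a took 44.1% of mitotic reads in the ICM and 26.1% in the whole blastocyst, and Kif1c took 0.966% of transport reads in the ICM and 19.4% in the whole blastocyst.

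Motors of chromosome arms and alignment included the member with the lowest difference of the family. Kif22, the kinesin-10 that pushes chromosome arms (Kid), had 7 reads and 1.69 RPKM in the ICM, against 102 reads and 20.8 RPKM in the whole blastocyst. It was 12.3-fold lower (5.75 to 31.3), and 3.13% of all genes compared had a lower difference. That difference, unlike the fold, depends on the gene length behind its RPKM, which is taken up below. Kif18a, a kinesin-8 that dampens chromosome oscillations at metaphase, had 3 reads and 0.135 RPKM in the ICM, against 35 reads and 1.32 RPKM in the whole blastocyst, a ratio of 0.102 (0.0200 to 0.323). Both rested on few ICM reads, and their intervals overlapped widely. Kif4, a chromokinesin that also sets the length of central spindle microtubules, had 180 reads and 5.85 RPKM in the ICM, against 464 reads and 12.7 RPKM in the whole blastocyst. It lay at the threshold with a difference of -1.0004 and a ratio of 0.460 (0.385 to 0.548). Kif4 shares 15.1% of its annotated exonic bases with Pdzd11 on the opposite strand, whose ratio was 0.179. Of the 24 compared kinesins 8 share annotated exonic bases with another gene, 7 of them with one on the opposite strand. Only the overlaps of Kif20a, Kif4 and Kif2a are described here.

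The depolymerases and Kif14 completed the class. Kif2c (MCAK), which corrects faulty kinetochore attachments, had 6 reads and 0.216 RPKM in the ICM, against 65 reads and 1.97 RPKM in the whole blastocyst, a ratio of 0.110 (0.0388 to 0.252). Its relative Kif2a, which works at spindle poles and also outside mitosis, had 127 reads and 2.05 RPKM in the ICM, against 339 reads and 4.601 RPKM in the whole blastocyst, a ratio of 0.445 (0.360 to 0.547). The value of Kif2c is a description, since it was compared only through its whole-blastocyst level. Kif2a shares 19.2% of its exonic bases with Dimt1 on the opposite strand, which had 4 reads in the ICM and 51 in the whole blastocyst. Kif14, a kinesin-3 needed for cytokinesis, had 174 reads and 1.08 RPKM in the ICM, against 445 reads and 2.32 RPKM in the whole blastocyst. Its ratio of 0.464 (0.387 to 0.554) lay among a close group of Kif11, Kif2a, Kif4, Kif14 and Kifc1 between 0.433 and 0.469, whose intervals overlapped. Of these 5 members all but Kif2a hold a CHR match in the promoter window, as do Kif15, Kif20b, Kif22, Kif23 and Kif2c. The windows of Kif18a and Kif2a hold none, and no window was found for Kif20a.

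**Figure D4:**
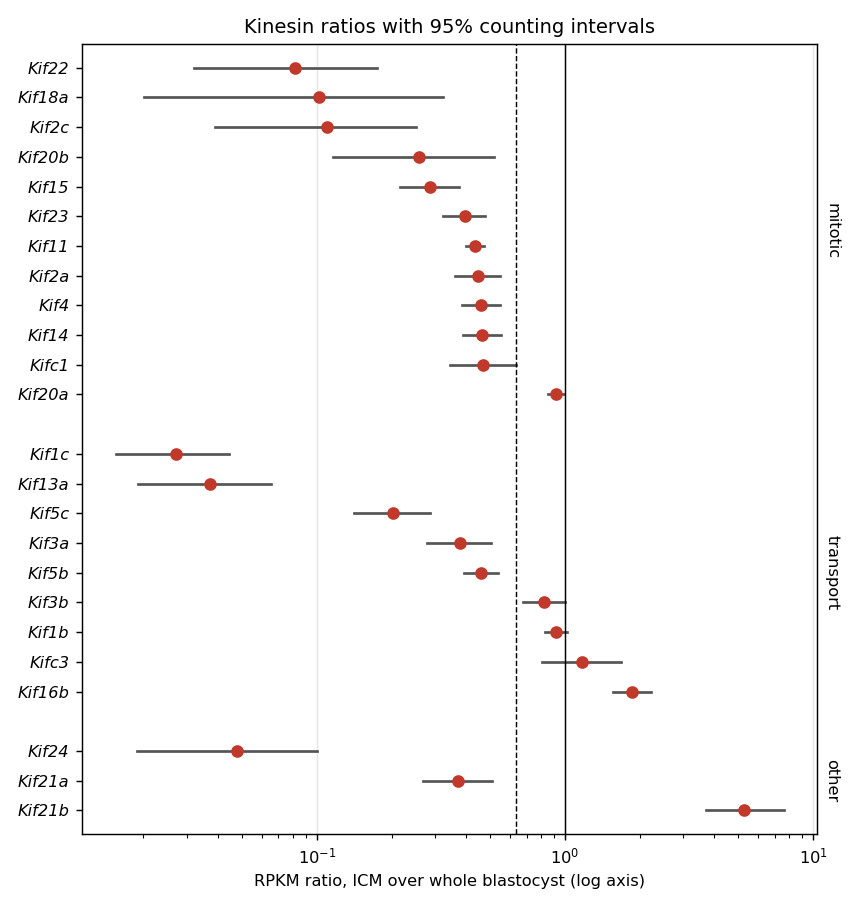
RPKM ratio of the ICM over the whole blastocyst (log axis) for the 24 compared kinesins, by class, with 95% exact counting intervals. The solid line marks 1 and the dashed line the centring ratio of 0.634. Mitotic members other than Kif20a lie left of the dashed line, and transport members run from 0.0272 for Kif1c to 1.86 for Kif16b.

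Transport kinesins spread over a wider span of ratios. Of 15 members 9 were compared, of which 2 were at least 2-fold lower (22.2%), 0 higher and 7 within 2-fold, beside 44.0% lower over all genes. The lower ones were Kif13a and Kif1c. Like Kif5c and Kif3a, they were compared only through their whole-blastocyst level. The count and the low end of the span thus only describe the 2 libraries. The median difference was -0.63, or 0.03 centred, so its sign depends on the scaling. Centred, Kif13a and Kif1c stayed at least 2-fold lower and Kif16b was at least 2-fold higher.

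The kinesin-3 family of vesicle and organelle motors held both ends of the class. Kif1c, a transporter of dense vesicles and integrins, had 16 reads and 0.112 RPKM in the ICM, against 699 reads and 4.12 RPKM in the whole blastocyst. It was 36.8-fold lower (22.5 to 64.8), the largest fold of any compared kinesin. Kif13a, which carries recycling endosomes, had 12 reads and 0.206 RPKM in the ICM, against 385 reads and 5.56 RPKM in the whole blastocyst, and was 27.03-fold lower (15.3 to 52.8). Kif1c and Kif13a were compared only through their whole-blastocyst level, so these folds and their rank only describe the 2 libraries. The trophectoderm markers with ICM reads were between 6.97-fold (Tcfap2c) and 48.2-fold (Krt18) lower. Whether the reads of Kif1c and Kif13a came from trophectoderm was not tested. Kif1b, whose isoforms carry mitochondria and synaptic vesicle precursors, had 698 reads and 4.10 RPKM in the ICM, against 901 reads and 4.46 RPKM in the whole blastocyst, a ratio of 0.920 (0.832 to 1.02). Kif16b, which moves early endosomes and transports the FGF receptor in the mouse embryo, had 334 reads and 5.61 RPKM in the ICM, against 213 reads and 3.01 RPKM in the whole blastocyst. Its ratio was 1.86 (1.56 to 2.22), the highest of the class, and 88.3% of all genes compared had a lower difference. Kif13b had 0 reads in the ICM and 1 in the whole blastocyst, and Kif1a, a motor of neurons, had none in either.

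The kinesin-1 heavy chains, which haul mitochondria and vesicles, were all lower in the ICM. Kif5b, the ubiquitous heavy chain, had 220 reads and 3.92 RPKM in the ICM, against 568 reads and 8.52 RPKM in the whole blastocyst, a ratio of 0.460 (0.392 to 0.538). Kif5c had 40 reads and 0.292 RPKM in the ICM, against 234 reads and 1.44 RPKM in the whole blastocyst, a ratio of 0.203 (0.141 to 0.285). Kif5a, the third heavy chain, stayed under an RPKM of 1 with 10 reads in the ICM and 36 in the whole blastocyst. On the log2 scale with its pseudocount the differences of Kif5c and Kif5b were -0.92 and -0.95. Both were within 2-fold and near the median of -0.84 over all genes. Kif5c was compared only through its whole-blastocyst level.

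The kinesin-2 motors of intraflagellar and vesicle transport were unequal as well. Kif3a had 61 reads and 0.498 RPKM in the ICM, against 192 reads and 1.32 RPKM in the whole blastocyst, a ratio of 0.377 (0.278 to 0.505). Its dimer partner Kif3b had 185 reads and 1.47 RPKM in the ICM, against 267 reads and 1.78 RPKM in the whole blastocyst, a ratio of 0.822 (0.678 to 0.996). Kif3b took 75.2% of the reads on this pair in the ICM (69.3 to 80.5), against 58.2% in the whole blastocyst (53.5 to 62.7). Kif3c had 0 reads in the ICM and 11 in the whole blastocyst, and the homodimeric Kif17 had none in either. Of the minus-end directed transport motors, Kifc3, which acts at adherens junctions, had 62 reads and 2.62 RPKM in the ICM, against 63 reads and 2.24 RPKM in the whole blastocyst. Its ratio of 1.17 (0.809 to 1.69) included 1. Kifc2 had 18 reads in the ICM and 40 in the whole blastocyst, under an RPKM of 1 in both.

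Of the 11 other kinesins 3 were compared, Kif24 only through its whole-blastocyst level and Kif21b only through its ICM level. Kif24, a depolymerase of the mother centriole that holds back cilium formation, had 7 reads and 0.123 RPKM in the ICM, against 174 reads and 2.57 RPKM in the whole blastocyst, and was 20.9-fold lower (9.95 to 52.9). The kinesin-4 pair Kif21a and Kif21b, which slow microtubule growth, differed in opposite directions. Kif21a had 53 reads and 1.10 RPKM in the ICM, against 170 reads and 2.98 RPKM in the whole blastocyst, a ratio of 0.370 (0.267 to 0.506). Kif21b had 177 reads and 1.17 RPKM in the ICM, against 40 reads and 0.223 RPKM in the whole blastocyst, a ratio of 5.25 (3.71 to 7.60), the highest of the family. On the scale with a pseudocount of 1 its difference was 0.83, under the 2-fold threshold, whereas with a pseudocount of 0.1 it was the 1 kinesin past 2-fold on the higher side. Kif21b took 76.96% of the reads on the pair in the ICM (70.97 to 82.2), against 19.05% in the whole blastocyst (13.97 to 25.02). Kif27 had 0 reads in the ICM and 10 in the whole blastocyst, and Kif9 had 0 in the ICM and 1 in the whole blastocyst. The remaining 6 of this class (Kif6, Kif7, Kif12, Kif19a, Kif26a and Kif26b) had no read in either library, which at this depth allows up to 3 reads in each.

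Levels between kinesins are less sure than ratios between libraries, because RPKM depends on a gene length that is not given. The length implied by reads over RPKM, set against the longest GENCODE transcript and scaled so that the median of 8142 genes is 1, had quartiles of 0.551 and 1.56 over all genes. It was 0.0772 for Kif22, 0.109 for Kif20b and 0.138 for Kif23, so their RPKM is high for their reads, while it was 0.844 for Kif11 and 0.675 for Kif20a. By reads, Kif20a led in the ICM and Kif11 in the whole blastocyst. The same length was used in both libraries, so the ratios of RPKM are unaffected. The RPKM filter, the differences with a pseudocount of 1 and the calls made from them do depend on it. That includes the calls of Kif22, Kif20b and Kif23, and the place of Kif22 as the member with the lowest difference.

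The partners of these motors held genes on both sides. Of 11 compared partners and adaptors 8 lay at least 2-fold lower and 1 higher, against 44.0% lower and 8.96% higher over all genes, with a median difference of -1.31. Centred, 2 of 11 were lower and 3 higher, against 20.5% and 16.9% over all genes, so the excess of lower partners was not seen on that scale. Kifap3, which joins Kif3a and Kif3b to cargo, had 5.79 RPKM in the ICM, against 15.1 in the whole blastocyst, a ratio of 0.383 (0.335 to 0.436). The kinesin-1 light chain gene Klc4 had 3 reads in the ICM, against 80 in the whole blastocyst, whereas Klc1 had 121 reads (6.94 RPKM) in the ICM, against 93 (4.49 RPKM), a ratio of 1.54 (1.17 to 2.05). Klc2 had 3 reads in the ICM and 1 in the whole blastocyst. The 2 light chains with reads above 50 thus lay on opposite sides, with Klc4 compared only through its whole-blastocyst level. Trak1, which ties mitochondria to kinesin-1, had 3.70 RPKM in the ICM, against 20.9 in the whole blastocyst, and was 5.65-fold lower (5.07 to 6.31). Mapk8ip3 (JIP3), a kinesin-1 scaffold, had 170 reads in the ICM, against 20 in the whole blastocyst, and was 10.09-fold higher (6.33 to 16.9). Mapk8ip3 was compared only through its ICM level. The kinesin-binding protein gene Kifbp, listed under the older symbol 2510003E04Rik, had 5.39 RPKM in the ICM, against 3.58 in the whole blastocyst, a ratio of 1.505 (1.26 to 1.80).

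Among the spindle genes that work with mitotic kinesins, most were lower and a few stood near or above equality, as within the kinesins. Of 11 central spindle and cytokinesis genes 10 had an ICM level at least 2-fold lower and 0 one that was higher, against 44.0% and 8.96% over all genes, with a median difference of -1.43. Centred, 4 of 11 were lower and 0 higher, against 20.5% and 16.9% over all genes. Racgap1, which forms centralspindlin with Kif23, had 62 reads and 1.69 RPKM in the ICM, against 832 reads and 19.1 RPKM in the whole blastocyst, a ratio of 0.0885 (0.0672 to 0.115). Kif23 took 69.3% of the reads on these 2 partners in the ICM (62.4 to 75.6), against 33.7% in the whole blastocyst (31.04 to 36.3). Birc5, the passenger complex subunit survivin, had 48.6 RPKM in the ICM, against 240.1 in the whole blastocyst, and was 4.94-fold lower (4.61 to 5.29). Plk1, the mitotic kinase that Kif20a recruits, had 11 reads in the ICM, against 210 in the whole blastocyst, and was compared only through the latter. Prc1, the microtubule bundler that Kif4 brings to the central spindle, had 29.1 RPKM in the ICM, against 41.6 in the whole blastocyst, a ratio of 0.700 (0.653 to 0.751).

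Of 20 spindle assembly and kinetochore genes 12 lay at least 2-fold lower in the ICM (60.0%) and 0 higher, against 44.0% and 8.96% over all genes, with a median difference of -1.26. Centred, 7 of 20 were lower and 1 higher, against 20.5% and 16.9% over all genes. Cenpe, the kinetochore motor of the kinesin-7 family whose symbol falls outside the naming rule, had 21 reads and 1.42 RPKM in the ICM, against 415 reads and 23.7 RPKM in the whole blastocyst. It was 16.6-fold lower (10.7 to 27.2). Spc25, a subunit of the kinetochore's NDC80 complex, was 7.27-fold lower (5.99 to 8.89), and the spindle protein gene Tacc3 5.81-fold lower (5.02 to 6.75). Tpx2, a spindle assembly factor that binds Kif11, had 16.2 RPKM in the ICM, against 11.9 in the whole blastocyst, a ratio of 1.36 (1.24 to 1.49). Of 8 general proliferation markers 5 lay at least 2-fold lower (62.5%) and 0 higher, against 44.0% and 8.96% over all genes, with a median difference of -1.36. Centred, 3 of 8 were lower, against 20.5% over all genes. The mitotic cyclin gene Ccnb1, which was compared only through its whole-blastocyst level, was 8.68-fold lower (6.24 to 12.4), the proliferation antigen gene Mki67 3.79-fold lower (3.16 to 4.55) and the DNA topoisomerase gene Top2a 3.67-fold lower (3.03 to 4.49).

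**Figure D5:**
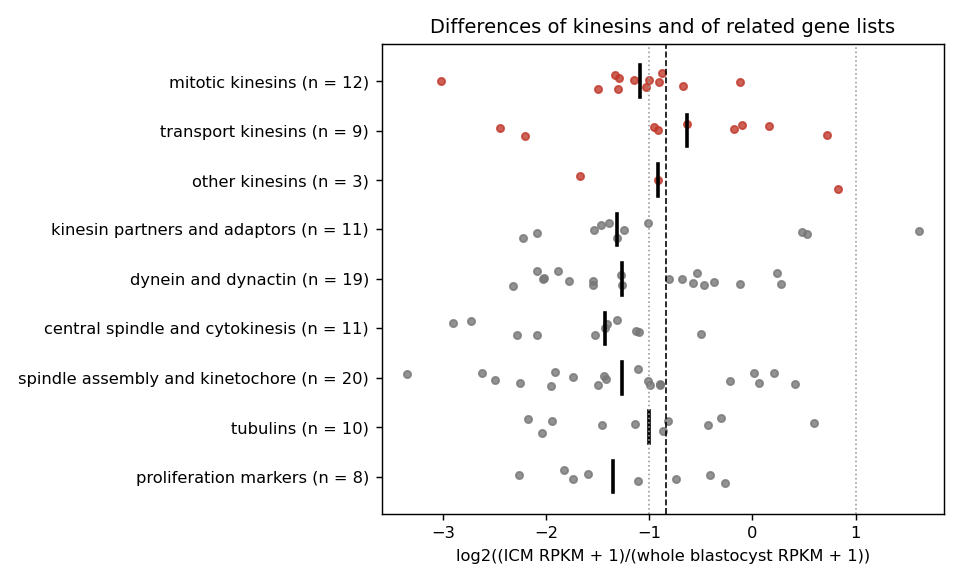
Difference on the log2 scale with a pseudocount of 1 (ICM over whole blastocyst) for each compared gene of the kinesin classes and of 6 related lists, 1 point per gene. Thick bars are list medians, the dashed line is the median of all 8981 genes (-0.84) and the dotted lines are -1 and 1. The kinesin medians ran from -1.09 (mitotic) to -0.63 (transport), and the central spindle list had the lowest median (-1.43).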

How the data were processed

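RNA of 1 library of ICMs and 1 of whole blastocysts was isolated (PicoPure), amplified (NuGEN Ovation) and sequenced as SOLiD fragment libraries, per the labels' protocols. The authors deposited 1 table with a read count and an RPKM value per gene and library. The submitters' processing notes name the build mm9. The aligner, annotation, strand use and handling of multi-mapping reads were not given in the sources used here. No molecular identifiers were described, so reads of amplified cDNA are not independent molecules.

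Members were matched by symbol and their classes, like the related lists, were written by hand with earlier results of these data known. Every member that reached an RPKM of 1 in either library is named with its values. From each related list the rule names the 3 genes with the largest difference among those with 50 or more reads in a library, and direct partners. Kifbp was named after its value was seen. Older symbols were matched through RefSeq (GRCm38.p6), whose table also gave the promoter windows. Exon overlaps and transcript lengths came from GENCODE vM21 (GRCm38) and served by gene name only, since the build differs.

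Intervals of ratios are exact conditional (Clopper-Pearson) 95% intervals from the counts. No p-value was computed. Python 3.11.15, pandas 2.3.3, scipy 1.17.1 and matplotlib 3.10.9 were used. The intervals were run on simulated Poisson counts, the model they assume. That run checks the computation only and does not cover added spread from amplification. Alternatives covered the pseudocount, the filter on low values and the scaling between libraries.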

Additional observations from a re-analysis of the deposited data

How the results depend on the processing

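Counts of members past 2-fold depended on the scaling between libraries and on the pseudocount, and no library could be left out with 1 per group. No paired analysis was possible because each group has 1 library. As measured, 11 of 24 kinesins were lower and 0 higher. Lower and higher counts were 18 and 1 of 24 with a pseudocount of 0.1, 6 and 0 of 10 with an RPKM of 5 or more, 4 and 2 of 24 centred, 8 and 3 of 27 as TPM, and 5 and 2 of 24 with scaling to listed gene reads. Over all genes the lower and higher shares under these settings were 51.2% and 11.5%, 48.7% and 6.80%, 20.5% and 16.9%, 31.4% and 24.7%, and 24.6% and 20.3%. Mitotic kinesins were lower in 8 of 12 as measured, 11 of 12 with a pseudocount of 0.1, 5 of 7 with an RPKM of 5 or more, 1 of 12 centred, 3 of 12 as TPM and 2 of 12 scaled to listed reads, and higher in 0 under every setting run. Transport kinesins were lower in 2 of 9 as measured, 5 of 9 with a pseudocount of 0.1 and 1 of 3 with an RPKM of 5 or more, and higher in 0 of 9 as measured, 1 of 9 centred, 2 of 11 as TPM and 1 of 9 scaled to listed reads. The median difference of all kinesins was -0.94 as measured, -0.28 centred, -0.36 as TPM and -0.27 scaled to listed reads. That of mitotic kinesins was -1.09, -0.43, -0.31 and -0.34 in the same order. That of transport kinesins was -0.63, 0.0267 (a change of sign), -0.16 and -0.18, and -1.10 with a pseudocount of 0.1. That of the other kinesins was -0.92 as measured, -0.38 with no RPKM filter, -0.26 centred and -0.37 scaled to listed reads. Kif13a, Kif1c, Kif22 and Kif24 were past 2-fold on the lower side under each scaling and pseudocount run. Of these, Kif13a, Kif1c and Kif24 were compared only through the whole blastocyst, where they are high, so their calls only describe the 2 libraries. None of the 11 members called as measured changed sign. Kif3a, called lower with a pseudocount of 0.1, had a centred difference of 0.0267. Kif18a, Kif2c, Kif22, Kif24 and Kif20b rest on 10 or fewer ICM reads.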

Other observations

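Dynein is the minus-end motor that works against kinesins on the same tracks, and tubulins build those tracks. As measured, both lists had shares of lower genes somewhat above that of all genes. Of 19 compared dynein and dynactin genes 10 lay at least 2-fold lower in the ICM (52.6%) and 0 higher, against 44.0% and 8.96% over all genes. The median difference was -1.26, against -0.84 over all genes. Centred, 6 of 19 were lower and 0 higher, against 20.5% and 16.9% over all genes. Bicd2, an adaptor that loads dynein with cargo, had 42 reads and 0.539 RPKM in the ICM, against 620 reads and 6.71 RPKM in the whole blastocyst. It was 12.4-fold lower (9.09 to 17.4) and was compared only through its whole-blastocyst level. The dynactin subunit gene Dctn6 was 5.08-fold lower (3.89 to 6.73) and Nde1, a dynein regulator at the centrosome, 5.18-fold lower (3.95 to 6.89).

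Of 10 compared tubulin genes 5 lay at least 2-fold lower in the ICM and 0 higher, against 44.0% and 8.96% over all genes. The median difference was -1.004. Centred, 3 of 10 were lower and 1 higher, against 20.5% and 16.9% over all genes. Tubb6 had 14 reads and 0.257 RPKM in the ICM, against 270 reads and 4.17 RPKM in the whole blastocyst. It was 16.2-fold lower (9.52 to 30.1) and was compared only through its whole-blastocyst level. Tuba1a was 6.92-fold lower (5.34 to 9.10) and Tubb2a 5.72-fold lower (4.46 to 7.43). Tubb5, named after its value was seen, had the most tubulin reads and lay on the other side, with 3980 reads and 49.5 RPKM in the ICM, against 3091 reads and 32.4 RPKM in the whole blastocyst, a ratio of 1.53 (1.46 to 1.60). Tubulin genes have close copies in the genome, so their reads are uncertain.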
